A study of Mus musculus with 2 samples.

Results

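Glypicans and syndecans are the main families of heparan sulfate proteoglycans on the cell surface. All 10 mouse genes of these families, the glypicans Gpc1 to Gpc6 and the syndecans Sdc1 to Sdc4, were taken by gene symbol from a table of 37309 genes, and each symbol matched 1 gene. The table holds RNA sequencing of intestinal subepithelial myofibroblasts (ISEMFs), the mesenchymal cells that lie beneath the crypts of the intestine and signal to the epithelium. Both cell populations were isolated from the small intestine of C57BL/6 mice and expanded in culture. Supportive ISEMFs came from neonatal mice, and non-supportive ISEMFs came from adult mice and gave little support to epithelial growth when R-spondin1, a potentiator of Wnt signaling, was left out of the medium. The labels name no engineered allele and no drug treatment for either population. The comparison asks how far the set of surface proteoglycans differed between a stromal population that supported epithelial growth and a population that did so weakly.

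A proteoglycan of this kind is a core protein to which long chains of heparan sulfate are attached. Glypicans are tied to the outer face of the cell membrane by a lipid anchor, whereas syndecans cross the membrane and carry a short cytoplasmic tail. Their sulfated chains bind Wnts, Hedgehogs, fibroblast growth factors and bone morphogenetic proteins, and thereby hold these ligands near the cells that make or receive them, which is why they are studied in the stem cell niche of the gut.

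Each population was sequenced as 1 library, so no test of the populations was possible, and age, separate isolation and any difference in time in culture cannot be told apart from the capacity to support growth. Levels are given as RPKM, read counts scaled to the gene length the authors deposited and to the size of the library. That length was above the exon union of the annotation used here for 7 of the 10 members. A longer length lowers the level in both libraries alike and leaves the plain ratio of RPKM as it is. A 2-fold difference was counted for genes whose RPKM reached 1 in at least 1 of the libraries and whose log2 ratio was 1 or more in size, with 0.1 added to each RPKM. Both the minimum and the addition depend on the deposited length, and the counts of 2-fold differences were not repeated with other lengths. Folds in the text are ratios of RPKM without that addition, and their 95% intervals were computed from the reads by the exact Clopper-Pearson method. These intervals compare 2 libraries and cover counting error only.

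The libraries held 50674472 reads on genes in supportive ISEMFs and 49615497 in non-supportive ISEMFs, of which 14.6% and 7.85% lay on mitochondrial genes. Acta2 and Vim, which define myofibroblasts, reached an RPKM of 908 and 325 in supportive and 1410 and 407 in non-supportive ISEMFs, and Des was at 0.575 and 3.40. Markers of other cells were not even. The 8 macrophage and immune markers found, of 9 listed, summed to an RPKM of 9.46 in supportive ISEMFs, with single genes from 0 to 6.31, and to 126 in non-supportive ISEMFs, with genes from 0.659 to 72.7. All 7 that reached the minimum were lower in supportive ISEMFs, and Emr1, Ptprc and Tyrobp had no read there. Smooth muscle and pericyte markers summed to 36.8 and 120.1, and 3 of 5 were 2-fold lower in supportive ISEMFs, while Cspg4, at 4.44 and 3.04, and Smtn, at 4.88 and 3.16, were higher there by less than 2-fold. Sums were 0.537 and 4.08 for epithelial markers, 0.131 and 0.209 for endothelial markers, 0.127 and 0.0432 for mesothelial markers, 6.75 and 0.199 for neuron and glia markers, nearly all from S100b, and 0.00840 and 0.101 for the 3 plasma cell markers found. Proliferation markers summed to 81.8 and 66.2, with 0 of 4 tested 2-fold apart. The part of any of these cells in the values below was not tested, and in bulk RNA fewer cells of a type and less RNA per cell cannot be told apart.

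Upstream sequences are shown for the 3 members that mark the ends of the pattern described below. Gpc3 had reads in the non-supportive library alone, Gpc5 had none in either, and Sdc1 was the member with a 2-fold higher level in supportive ISEMFs. The sequences are from RefSeq (GRCm38.p6) and were placed by exact match on mm9, at chrX:49967152-49967401 on the minus strand, chr14:115491187-115491436 on the plus strand and chr12:8777952-8778128 on the plus strand. Each reads 5′ to 3′ toward the gene, and capitals mark GC boxes, the letters GGGCGG on either strand.
Gpc3: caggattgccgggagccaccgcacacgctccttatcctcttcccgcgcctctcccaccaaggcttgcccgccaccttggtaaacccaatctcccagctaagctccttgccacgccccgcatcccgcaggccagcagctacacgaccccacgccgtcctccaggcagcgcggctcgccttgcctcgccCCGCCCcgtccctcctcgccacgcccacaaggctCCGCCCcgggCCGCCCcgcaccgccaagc
Gpc5: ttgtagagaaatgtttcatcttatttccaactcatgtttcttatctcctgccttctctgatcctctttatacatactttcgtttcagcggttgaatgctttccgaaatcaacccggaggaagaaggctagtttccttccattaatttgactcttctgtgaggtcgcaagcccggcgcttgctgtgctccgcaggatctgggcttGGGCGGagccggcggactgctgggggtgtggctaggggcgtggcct
Sdc1: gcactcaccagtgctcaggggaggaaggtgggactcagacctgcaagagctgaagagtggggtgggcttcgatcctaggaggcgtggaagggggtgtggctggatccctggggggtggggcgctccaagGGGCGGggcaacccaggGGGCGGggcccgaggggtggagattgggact
The Sdc1 stretch is 177 bases long because it stops at the annotated start of the gene. In the 250 bases before the RefSeq start, a GC box was found in all 7 members with an entry (Gpc2, Gpc3, Gpc4, Gpc5, Sdc1, Sdc3 and Sdc4) and in 32.9% of 27025 promoters of the same length. Gpc3, Sdc1, Sdc3 and Gpc2 held 3 each, Sdc4 held 4, and Gpc4 and Gpc5 held 1. The RefSeq start lay 329 bases inside the annotated gene for Gpc4 and 699 for Sdc4, so both windows lie wholly within the gene. For Gpc2 and Sdc1 it lay 68 and 73 bases inside, so their windows lie within it in part. GC content ran from 66.0% to 76.4% in 6 of the 7, against a median of 52% over all promoters, and was 51.2% in Gpc5. CpG dinucleotides numbered 10 in Sdc1, 12 in Gpc5, 18 in Gpc4, 19 in Gpc2 and Sdc4, 25 in Gpc3 and 32 in Sdc3, against a median of 6. A match of letters is a description and not a binding site. Gpc1, Gpc6 and Sdc2 had no entry.

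The families differed in opposite directions in their summed level. Glypicans summed to an RPKM of 37.2 in supportive and 61.3 in non-supportive ISEMFs, which is 1.65-fold lower in supportive ISEMFs. Syndecans summed to 134.9 and 99.1, a ratio of 1.36 in favor of supportive ISEMFs. On the RPKM scale, supportive ISEMFs therefore held 3.63 times as much syndecan as glypican RNA and non-supportive ISEMFs held 1.62 times as much, or 3.65 and 1.65 times with the exon lengths of the annotation. Most of each difference came from 1 gene, Gpc4 among glypicans and Sdc4 among syndecans, and neither was 2-fold apart. The log2 ratios of the sums were -0.72 for glypicans and 0.45 for syndecans. Over all genes that reached the minimum, the quartiles of the log2 ratio were -0.47 and 0.34. Their median size was 0.42, so the syndecan sum differed about as much as a typical gene. Of the 5 glypicans with a read, 5 had a lower level in supportive ISEMFs, although Gpc6 was lower by only 1.07-fold. Of the 4 syndecans, 3 had a higher level there. Of the 10086 genes that reached the minimum, 4508 (44.7%) had a log2 ratio above 0 and 5578 had one below 0. A lower level in supportive ISEMFs was thus the more common direction over all genes at this scaling. The direction depended on the scaling. The median log2 ratio of all genes became 0.04 when mitochondrial genes were left out of the library size. It was -0.02 with TMM factors and -0.03 with DESeq2 size factors. The median log2 ratio was -0.85 over the 4 glypicans that reached the minimum and 0.45 over the 4 syndecans, against -0.07 over the 10086 genes of the table that did. In size, 2 of the 8 members that reached the minimum were 2-fold apart, Sdc1 higher and Gpc1 lower. Over all genes that reached it, 18.3% were 2-fold apart, 9.01% higher and 9.27% lower in supportive ISEMFs, so the count of members is near that of genes in general.

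**Figure D1:**
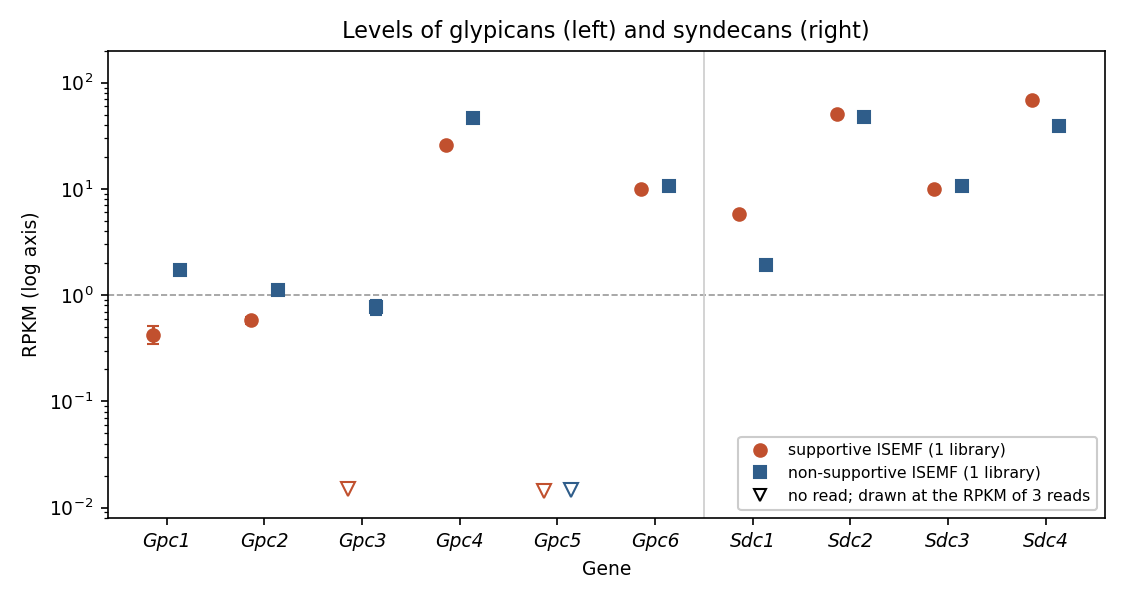
RPKM of each glypican and syndecan in supportive and non-supportive ISEMFs, on a log axis; points are single libraries and error bars, mostly smaller than the points, are exact 95% counting intervals, with the dashed line at 1 and open triangles for genes without a read drawn at the RPKM of 3 reads. Sdc4, Sdc2 and Gpc4 lead in both libraries, Gpc3 is at 0 in supportive ISEMFs alone, and Gpc5 is at 0 in both.

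Among glypicans, Gpc4, a regulator of Wnt signaling, carried most of the RNA. The gene lies at chrX:49406198-49518429 on the minus strand (mm9, ENSMUSG00000031119, 9 exon blocks). It had 4953 reads in supportive and 8648 in non-supportive ISEMFs, an RPKM of 26.1 and 47.0. It was 1.80-fold lower in supportive ISEMFs (95% interval 1.73 to 1.86), a log2 ratio of -0.84 that falls short of 2-fold. Gpc4 made 70.3% of the summed glypican RPKM in supportive and 76.6% in non-supportive ISEMFs. Its rank among protein-coding genes was 821 and 460.

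Gpc6, the nearest relative of Gpc4 in the family and a gene in which mutations cause the skeletal disorder omodysplasia, differed little. It lies at chr14:117324519-118378751 on the plus strand (ENSMUSG00000058571, 10 exon blocks). It had 9222 and 9606 reads, an RPKM of 10.03 in supportive and 10.75 in non-supportive ISEMFs. The fold was 1.07 lower in supportive ISEMFs (95% interval 1.04 to 1.10), and the log2 ratio of -0.10 turned to 0.02 when mitochondrial genes were left out of the library size. Since Gpc4 was lower and Gpc6 was near level, Gpc6 made 27.0% of the glypican sum in supportive and 17.5% in non-supportive ISEMFs.

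Gpc3, the glypican that binds Hedgehog and is lost in an inherited overgrowth syndrome, was detected in 1 library. It lies at chrX:49625603-49967127 on the minus strand (ENSMUSG00000055653, 8 exon blocks). It had 0 reads in supportive and 150 in non-supportive ISEMFs, an RPKM of 0 and 0.767. With the supportive level set at a floor of 3 reads, an RPKM of 0.0149, supportive ISEMFs were 51.45-fold lower. This is not the smallest fold the reads allow, since the exact 95% interval ended at a log2 ratio of -5.37, a smaller difference. Gpc3 stayed under the minimum RPKM of 1 in both libraries and was not counted among the 2-fold differences. Of all genes under that minimum in both libraries, which include genes without a read, 6.67% had a log2 ratio of 1 or more in size, as Gpc3 did. Gpc4 is its nearest annotated gene on that side of chromosome X, with 107 kb and no annotated gene between them. The neighbors differed in level, since Gpc4 was among the best-represented members and Gpc3 stayed below 1 RPKM in both libraries.

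Gpc5, known from brain and kidney, lies at chr14:115491437-116923659 on the plus strand (ENSMUSG00000022112, 9 exon blocks). It had 0 reads in both libraries, which allows an RPKM of up to 0.0142 in supportive and 0.0146 in non-supportive ISEMFs at 3 reads. It also neighbors a member of the family, with 401 kb and no annotated gene between it and Gpc6. Both pairs of neighbors thus joined a glypican above an RPKM of 10 with a glypican below 1.

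Gpc1, a co-receptor for fibroblast growth factors, was the glypican with a 2-fold difference. It lies at chr1:94728222-94756775 on the plus strand (ENSMUSG00000034220, 9 exon blocks). It had 108 reads in supportive and 428 in non-supportive ISEMFs, an RPKM of 0.420 and 1.71. It was 4.08-fold lower in supportive ISEMFs (95% interval 3.29 to 5.08), a log2 ratio of -1.80. The level was low in both libraries, and with 1 added to each RPKM the log2 ratio was -0.93 and no longer reached the threshold.

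Gpc2, first described in developing neurons, lies at chr5:138706180-138721233 on the minus strand (ENSMUSG00000029510, 8 exon blocks). It had 624 and 1182 reads, an RPKM of 0.578 in supportive and 1.13 in non-supportive ISEMFs. It was 1.95-fold lower in supportive ISEMFs (95% interval 1.77 to 2.15). This level is uncertain, because 38.8% of its annotated exon bases also belong to Gal3st4 on the same strand and 10.6% to 6330418K02Rik on the opposite strand. The authors left out reads that could not be assigned to 1 gene. Bases shared with Gal3st4 would then add length but no reads, which lowers the RPKM in both libraries, also with the exon length given next. The deposited gene length was 15104 bases, against 8309 exon bases in the annotation used here, with which the RPKM was 1.05 in supportive and 2.05 in non-supportive ISEMFs.

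Sdc4, a syndecan of focal adhesions that signals through protein kinase C alpha, had the highest level of all members in supportive ISEMFs. It lies at chr2:164249747-164269387 on the minus strand (ENSMUSG00000017009, 6 exon blocks). It had 14075 reads in supportive and 7876 in non-supportive ISEMFs, an RPKM of 68.3 and 39.3. It was 1.74-fold higher in supportive ISEMFs (95% interval 1.69 to 1.79), a log2 ratio of 0.79 short of 2-fold. Its rank among protein-coding genes was 230 in supportive and 595 in non-supportive ISEMFs. Sdc4 alone accounted for 50.6% of the syndecan sum in supportive and 39.7% in non-supportive ISEMFs.

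Sdc2, the syndecan typical of fibroblasts, lies at chr15:32850478-32964485 on the plus strand (ENSMUSG00000022261, 5 exon blocks). It had 13086 and 11814 reads, an RPKM of 50.8 in supportive and 47.2 in non-supportive ISEMFs. It was 1.08-fold higher in supportive ISEMFs (95% interval 1.05 to 1.10). Near level in itself, Sdc2 made 37.6% of the syndecan sum in supportive ISEMFs, below Sdc4, and 47.6% in non-supportive ISEMFs, above Sdc4.

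Sdc1, the syndecan typical of epithelial and plasma cells, was the syndecan with a 2-fold difference. It lies at chr12:8778129-8800521 on the plus strand (ENSMUSG00000020592, 7 exon blocks). It had 2286 reads in supportive and 743 in non-supportive ISEMFs, an RPKM of 5.79 and 1.94. It was 2.99-fold higher in supportive ISEMFs (95% interval 2.75 to 3.25), a log2 ratio of 1.53. Of the markers that define epithelium, Epcam had 0 and 5 reads, Krt8 had 0 and 4, and Cdx2 had 0 in both libraries, so they were at or near 0. Cdh1 was higher in supportive ISEMFs, as Sdc1 was, with 159 and 18 reads. Krt18, with 0 and 19 reads, Krt19, with 1 and 93, and Krt20, with 11 and 419, were lower there. Of the plasma cell markers, Igj had 1 read in each library, Cd79a had 0 and 1, and Prdm1 had 1 and 45.

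Sdc3, a syndecan of nerve and muscle, lies at chr4:130348452-130382234 on the plus strand (ENSMUSG00000025743, 7 exon blocks). It had 4305 and 4431 reads, an RPKM of 10.1 in supportive and 10.7 in non-supportive ISEMFs. It was 1.06-fold lower in supportive ISEMFs (95% interval 1.02 to 1.10), and its log2 ratio of -0.08 turned to 0.04 when mitochondrial genes were left out of the library size.

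Set side by side per length, the order in supportive ISEMFs was Sdc4, Sdc2, Gpc4, Sdc3, Gpc6, Sdc1, Gpc2 and Gpc1, with Gpc3 and Gpc5 at 0. Sdc3 and Gpc6 had overlapping intervals there. In non-supportive ISEMFs the order was Sdc2, Gpc4, Sdc4, Gpc6, Sdc3, Sdc1, Gpc1, Gpc2 and Gpc3, with Gpc5 at 0. The intervals of Sdc2 and Gpc4 overlapped, as did those of Gpc6 and Sdc3 and those of Sdc1 and Gpc1. Sdc4 thus stood above Gpc4 in supportive ISEMFs and below it in non-supportive ISEMFs. Parts of the order depended on the deposited lengths. With the exon lengths of the annotation, Gpc6 stood above Sdc3 in supportive ISEMFs, at an RPKM of 13.7 and 10.06, and Gpc2 stood above Gpc1 in non-supportive ISEMFs, at 2.05 and 1.71, while Sdc4 and Gpc4 kept their places. No 50-base stretch of the coding transcripts, read in the same direction, was shared between members among 38408 compared. Opposite strands, other transcripts of these genes and near matches were not compared.

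**Figure D2:**
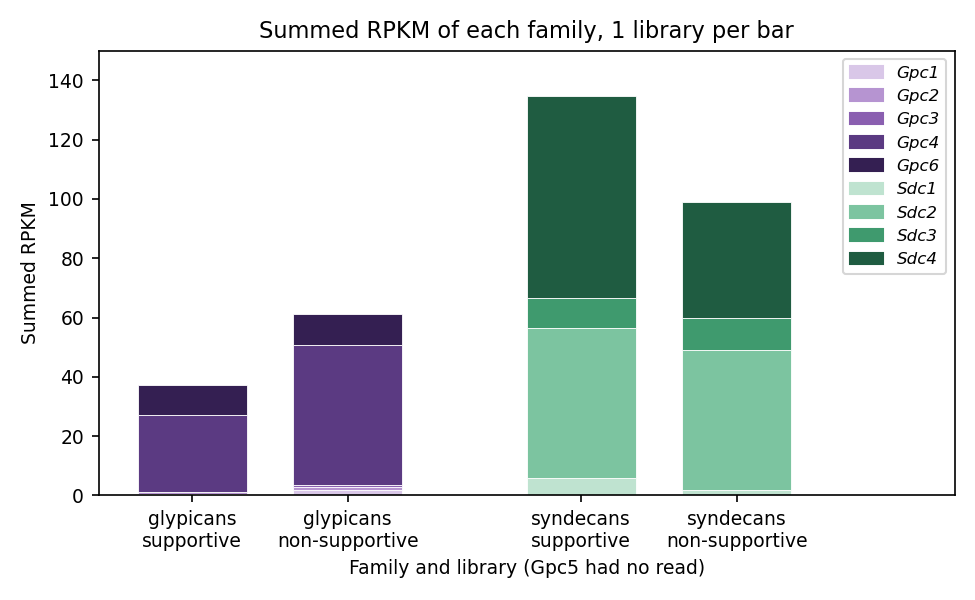
Summed RPKM of the glypicans and of the syndecans in each library, stacked by member. The glypican bar is shorter and the syndecan bar taller in supportive ISEMFs, with Gpc4 and Sdc4 making most of the difference.

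Cells that carry these core proteins also need the enzymes that build their chains. A chain starts on a linker of sugars, is lengthened by the exostosins, and is then sulfated in the Golgi from the donor that the PAPS synthases supply. Of 33 genes in 4 lists of heparan sulfate synthesis, 21 reached the minimum, and 4 of these, 19.05%, were 2-fold apart, near the 18.3% of all genes. The linker list had 0 of 4 tested genes 2-fold apart and a median log2 ratio of -0.15. Its highest gene was Fam20b, a kinase of the linker, with an RPKM of 8.04 in supportive and 6.31 in non-supportive ISEMFs. The list of chain polymerization had 0 of 4 and a median of -0.19. The polymerase subunit Ext1 was at 34.2 and 44.6, and its partner Ext2 was at 2.66 and 5.18, a level 1.95-fold lower in supportive ISEMFs (95% interval 1.83 to 2.07). Extl3, which starts the heparan sulfate chain, was at 12.0 and 11.95 and near level.

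The 4 genes were Papss2, Hs6st2, Hs2st1 and Hs3st3b1. Precursor supply had 1 of 6 genes 2-fold higher in supportive ISEMFs, 0 lower and a median of 0.31. Papss2 is a synthase of the sulfate donor and had an RPKM of 19.5 and 7.34, 2.66-fold higher in supportive ISEMFs (95% interval 2.52 to 2.80). Chain modification had 1 gene higher and 2 lower of 7, with a median of -0.16. Hs6st2, which sulfates glucosamine at the 6-O position, had an RPKM of 51.2 in supportive and 11.9 in non-supportive ISEMFs, 4.29-fold higher (95% interval 4.18 to 4.40). Hs2st1, which sulfates uronic acid at the 2-O position, had 46.6 and 100.3, 2.15-fold lower in supportive ISEMFs, and its log2 ratio of -1.11 fell to -0.99, short of the threshold, when mitochondrial genes were left out of the library size. Hs3st3b1, a 3-O sulfotransferase, had 0.399 and 1.18, 2.95-fold lower (95% interval 2.43 to 3.599). Its level was low, and with 1 added to each RPKM its log2 ratio of -1.35 became -0.64, short of the threshold. The epimerase Glce was near level at 48.2 and 44.9, and the N-sulfotransferase Ndst1, at 11.2 and 6.39, was 1.75-fold higher.

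The list of extracellular editing and release held 1 gene lower and 0 higher of 5 tested, with a median of -0.35. This gene was Sulf2, an enzyme that removes 6-O sulfate from chains outside the cell. It had 845 reads in supportive and 3472 in non-supportive ISEMFs, an RPKM of 1.43 and 6.05, 4.23-fold lower in supportive ISEMFs (95% interval 3.92 to 4.56). Hs6st2, which adds this sulfate, was higher in supportive ISEMFs, whereas Hs6st1, of the same function, was at 5.79 and 7.15, 1.24-fold lower there (95% interval 1.15 to 1.32). The related Sulf1 was at 9.29 and 14.1, and Adam10, a protease known to shed surface proteins, was at 22.4 and 28.6. Adam17, of the same protease family, was near level at 5.85 and 5.35.

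Among the other heparan sulfate proteoglycans, 2 of 5 tested genes were 2-fold higher in supportive ISEMFs and 0 were lower, with a median of 0.75. Both are proteoglycans of the basement membrane. Agrn, agrin, had an RPKM of 8.64 in supportive and 1.07 in non-supportive ISEMFs, 8.11-fold higher (95% interval 7.56 to 8.72). Col18a1, collagen XVIII, had 1.64 and 0.178, 9.19-fold higher (95% interval 7.71 to 11.0). Perlecan, Hspg2, the other basement membrane member, was near level at 6.69 and 6.06, and the receptors Nrp1, at 49.95 and 33.0, and Tgfbr3, at 2.85 and 1.65, were higher in supportive ISEMFs by less than 2-fold.

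Partners of the syndecan tail had 1 of 6 genes 2-fold higher, 0 lower and a median of -0.21. The Rac activator Tiam1 had an RPKM of 2.70 and 0.820, 3.29-fold higher in supportive ISEMFs (95% interval 3.02 to 3.59). Prkca, the kinase bound by Sdc4, was at 7.28 and 3.87, 1.88-fold higher. The adaptor syntenin, Sdcbp, was at 21.3 and 29.99, 1.41-fold lower in supportive ISEMFs. Gipc1, at 6.01 and 9.33, and Synj2bp, at 4.06 and 6.75, were also lower there by less than 2-fold. Syndecans can also carry chondroitin sulfate, and that list had 2 genes higher and 3 lower of 10, with a median of -0.46. The chain-starting enzymes Csgalnact1, at 6.01 and 1.36, and Csgalnact2, at 7.08 and 2.84, were higher in supportive ISEMFs. The sulfotransferases Chst11, at 2.14 and 5.63, Chst12, at 3.89 and 10.2, and Chst15, at 2.30 and 10.8, were lower. In all 8 lists, 7 genes were 2-fold higher and 6 lower of 47 tested. That is 27.7%, where 18.3% of all genes were 2-fold apart, 9.01% higher and 9.27% lower, and the single lists are too short to be read against these shares. The part in these counts of the macrophage markers and of Des, Myh11 and Rgs5, which were lower in supportive ISEMFs, was not tested.

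**Figure D3:**
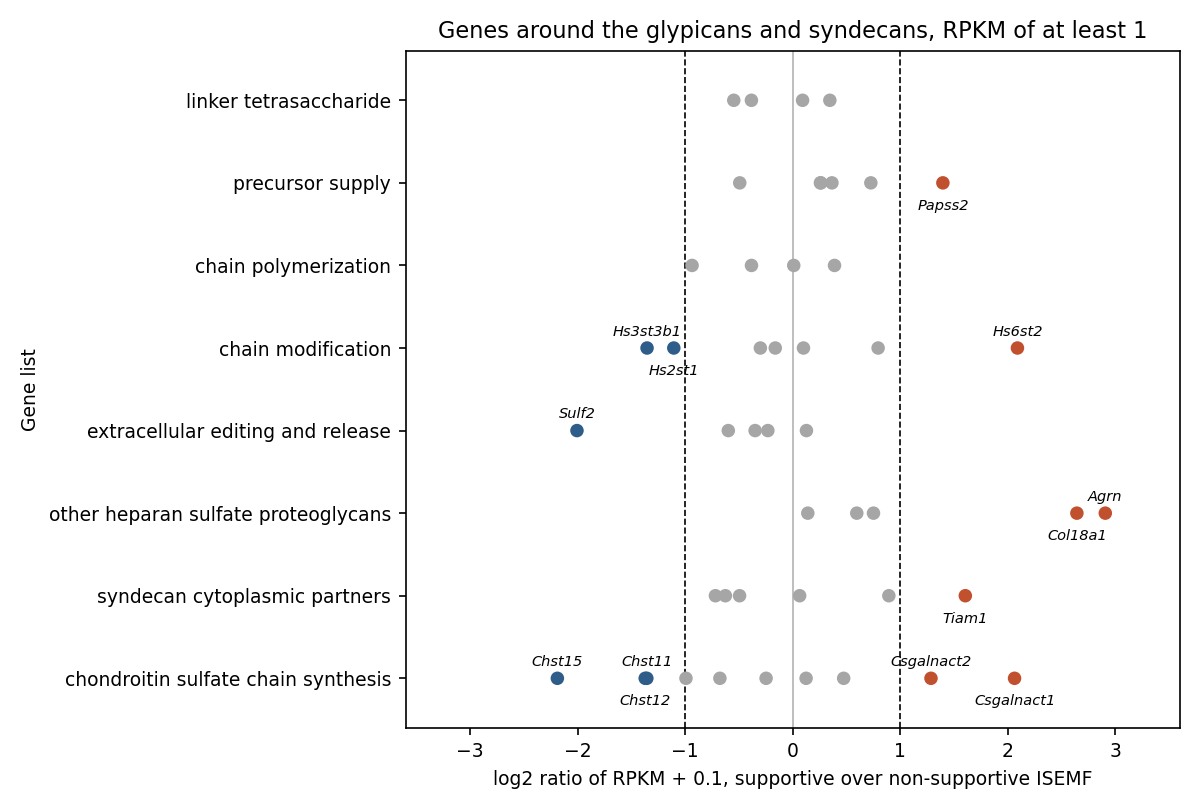
Log2 ratio (RPKM + 0.1, supportive over non-supportive ISEMFs) of each gene with an RPKM of at least 1 in 8 lists around the glypicans and syndecans; points are genes, dashed lines mark 2-fold, and colored points lie outside them. Of the 47 genes, 7 lie to the right and 6 to the left.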

How the data were processed

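RNA from supportive and non-supportive ISEMFs, 1 library each, was sequenced by the authors as single-end reads, aligned to mm9 (TopHat2 2.0.4 in the submitters' processing notes) with Ensembl genes and unique hits only, and counted with HTSeq 0.5.4p3. The authors deposited raw counts, in whole reads for each gene. The deposited RPKM values are these counts divided by a deposited gene length and by library size. The authors describe that length as the union of exons, but of 14208 genes whose distinct exons overlap in the annotation used here, 90.1% had a deposited length above the union, by a median of 1.29 times over all of them, and 0 had a shorter length. Gpc2 was longer than its whole annotated span. The Ensembl release is not given in the sources used here. Codes in the names of the deposited table and its columns differ between the libraries and may stand for passage, which neither the labels nor the methods state. The authors' log2 ratio, p-value and adjusted p-value columns (from DESeq) and a table of Wnt pathway genes were not used.

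Log2 ratios used a pseudocount of 0.1 RPKM and a minimum RPKM of 1 in either library. With 1 library per group edgeR and DESeq2 offer no test, so they gave scaling factors only. Intervals were exact Clopper-Pearson at 95%, and a count of 0 was set at a floor of 3 reads, 5.92e-06% of the supportive and 6.05e-06% of the non-supportive reads on genes. PCR copies are not independent molecules. Coordinates came from GENCODE vM1 (mm9), which held all 37309 identifiers, 65.7% with the deposited exon length.

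The members and the gene lists were chosen with earlier results of these data known. Named genes were all members, every listed pathway gene with a 2-fold difference, up to 4 further genes per list with the highest RPKM, and the defining markers. No gene was named for likeness of pattern, since 2 libraries give only a ratio. The listed Pxylp1 was not matched in the table. Promoters were from RefSeq (GRCm38.p6). Scripts were tested on simulated data. Scaling used edgeR 4.0.16 and DESeq2 1.42.0 in R 4.3.3, and the other steps used Python 3.11.15 with scipy 1.17.1 and pandas 2.3.3. Alternatives were other pseudocounts, minimums, fold thresholds, scalings and exon lengths. Those for pathway genes and family sums were added after seeing the data.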

Additional observations from a re-analysis of the deposited data

How the results depend on the processing

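Of the members, 2 were 2-fold apart, and the count was 1 with a pseudocount of 1, 1 with a minimum RPKM of 5 and 0 at a 4-fold threshold, where over all genes 11.9%, 17.3% and 6.53% were apart. It was 3, with Gpc3 added, without a minimum, where 9.81% of all genes were apart. It stayed at 2 under a pseudocount of 0.001, TMM factors, DESeq2 size factors, a library size without mitochondrial genes, and when the whole interval had to pass 2-fold. Of the 47 pathway genes tested, 13 were 2-fold apart. That count was 12 with a pseudocount of 1, 14 with one of 0.001 and 14 without mitochondrial genes, where 11.9%, 19.3% and 18.3% of all genes were apart. It was 18 of 68 without a minimum and 10 of 33 with a minimum of 5, where 9.81% and 17.3% of all genes were apart. The count stayed at 13 under TMM factors and DESeq2 size factors, each with 48 tested, and when the whole interval had to pass 2-fold. Of all genes, 18.2%, 18.2% and 15.3% were apart there. The DESeq2 size factors were 1 for both libraries, so that setting did not scale for depth. At 4-fold, 6 of 47 were apart, where 6.53% of all genes were. Over all genes, 909 were higher and 935 lower in supportive ISEMFs, against 578 and 621 with a pseudocount of 1, 412 and 466 with a minimum of 5, 1775 and 1885 with none, and 327 and 332 at 4-fold. More were higher than lower with TMM factors, 980 and 858, with DESeq2 size factors, 958 and 881, and without mitochondrial genes, 1070 and 776. With exon lengths of the reference annotation, Gpc4 made 63.3% and 70.9% of the glypican sum in supportive and non-supportive ISEMFs, and Sdc4 made 51.2% and 40.8% of the syndecan sum. The ratio of summed RPKM, supportive over non-supportive, was 0.606 for glypicans and became 0.630 with TMM factors, 0.624 with DESeq2 size factors and 0.659 without mitochondrial genes. That of syndecans was 1.36 and became 1.42, 1.40 and 1.48. Leaving out mitochondrial genes moved the median log2 ratio of all genes up by 0.12, and it was the setting in which Gpc6 and Sdc3 turned above 0. No replicate could be left out, since each population had 1 library, and the spread between cultures is not known. Depth limits Gpc3 and Gpc5, for which a few reads could be missed.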

Other observations

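Of the 68 listed pathway genes, 21 stayed under an RPKM of 1 in both libraries and 5 of these had no read in either. Of the 21, 5 had a log2 ratio (RPKM + 0.1) of at least 1 in size and were named after their values were seen. Over all 27223 genes under the minimum in both libraries, which include genes without a read, 6.67% had such a ratio. The 3-O sulfotransferase Hs3st1 had 1 read in supportive and 36 in non-supportive ISEMFs, a ratio of 37.0 with a counting interval from 6.24 to 1503. Hs3st3a1, of the same enzyme family, had 38 and 144 reads, 3.90-fold lower in supportive ISEMFs (95% interval 2.71 to 5.73). Serglycin, Srgn, a proteoglycan of the secretory granules of blood cells, had 20 and 110 reads, 5.66-fold lower (95% interval 3.49 to 9.63), and the macrophage and immune markers were also lower there. The chondroitin sulfotransferases Chst3, with 124 and 10 reads, and Chst7, with 10 and 73 reads, differed in opposite directions.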
